A study of Mus musculus with 48 samples.

Results

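The urea cycle and nitrogen disposal genes were followed across doses of dichloroacetic acid (DCA) in mouse liver. The 10 genes were taken by symbol from the deposited expression tables: Cps1, Otc, Nags, Ass1, Asl, Arg1, Gls2, Sds, Got1 and Gpt. All 10 are among the 11275 genes listed for frozen tissue (FROZ), and 9 of them, all but Cps1, are among the 6673 genes listed for formalin-fixed paraffin-embedded tissue (FFPE). The rule itself uses symbols and no measured value, although the list was drawn up with earlier results of these data known.

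The livers came from 24 male B6C3F1 mice, 4 weeks of age, that drank water with DCA or vehicle for 6 days. There were 6 mice for each of 4 groups, which received 0, 198, 313 or 427 mg/kg-d of DCA from water with 0, 1, 2 or 3.5 g/L. Each mouse gave 1 FROZ and 1 FFPE library, 48 libraries in all, and animals are named below by the numbers in the sample records. FROZ pieces were a mix of lobes (left lateral, caudate and right medial), whereas FFPE pieces came from the left lateral and right medial lobes. FROZ libraries started from isolated RNA and FFPE libraries from lysed sections. Preservation, the lobes sampled and the input to the assay therefore cannot be told apart. The tissue was archival, and mice of a single sex, strain, age and exposure length limit what the groups stand for. Expression was measured by TempO-Seq, in which paired detector oligos bind neighbouring stretches of a transcript and are then ligated, amplified and counted. Values are CPM, the reads of a gene scaled to a common total over the listed genes of a library, and fold changes are on the log2(CPM + 1) scale. The level of a gene depends on its probe, and the Ass1 probe was one of those deliberately attenuated in the assay, so levels are compared between samples and not between genes.

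The urea cycle turns ammonia, the toxic product of amino acid breakdown, into urea for excretion, and the complete cycle runs in hepatocytes, mainly in those around the portal vein. Its first steps are mitochondrial: Cps1 joins ammonia to bicarbonate, and it needs N-acetylglutamate, the product of Nags. Otc then makes citrulline, and in the cytosol Ass1, Asl and Arg1 finish the cycle and release urea. The other members handle nitrogen that can enter the cycle. Gls2 is the liver glutaminase that frees ammonia from glutamine, and Sds deaminates serine. The transaminases Got1 and Gpt transfer the amino groups of aspartate and alanine. Several of these genes are known to rise with fasting, glucagon, glucocorticoids or protein intake.

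The 10 genes are spread over the genome. In GRCm38 (mm10), Cps1 is at chr1:67123026-67231259 on the plus strand, Ass1 at chr2:31470207-31520672 (plus), Nags at chr11:102145513-102149477 (plus), Gpt at chr15:76695716-76699686 (plus), Got1 at chr19:43499752-43524605 (minus) and Otc at chrX:10252305-10321024 (plus). Chromosome 5 holds both Sds at chr5:120476526-120483932 (plus) and Asl at chr5:130011258-130029247 (minus). Chromosome 10 holds both Arg1 at chr10:24915221-24927484 (minus) and Gls2 at chr10:128194457-128210004 (plus). All 10 are annotated as protein-coding genes.

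RefSeq promoter sequence (GRCm38.p6) was at hand for 4 of the 10 genes, Ass1, Otc, Nags and Got1. The 150 bases before the start of 3 of them are shown because these genes moved furthest in frozen tissue, Otc and Got1 down and Nags up, from chrX:10252155-10252304 (plus strand), chr19:43524606-43524755 (minus) and chr11:102145363-102145512 (plus). Sequences run 5′ to 3′, with matches to the searched motifs in capitals.
Otc: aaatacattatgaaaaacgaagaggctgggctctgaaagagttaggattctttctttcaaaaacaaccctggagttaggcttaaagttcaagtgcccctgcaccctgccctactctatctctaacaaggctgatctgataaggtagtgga
Got1: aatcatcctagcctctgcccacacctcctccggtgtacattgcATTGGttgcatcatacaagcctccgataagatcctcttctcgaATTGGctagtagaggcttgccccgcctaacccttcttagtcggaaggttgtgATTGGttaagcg
Nags: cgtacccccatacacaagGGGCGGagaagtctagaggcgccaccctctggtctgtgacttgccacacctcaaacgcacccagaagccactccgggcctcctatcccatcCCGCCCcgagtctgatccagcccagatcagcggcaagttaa
Motifs were searched as exact letters on both strands. The cAMP response element TGACGTCA is held by 1.36% of the 32851 promoters over the same 150 bases, its core TGACG (which lies within it) by 13.3%, the C/EBP motif TTGCNNAA by 5.46% and the DR1 motif (direct repeat with a spacer of 1 base) by 0.0304%. None of these 4 was found in the 150 bases of Otc, Got1, Nags or Ass1. Got1 held 3 matches to the CCAAT box CCAAT (24.5% of promoters hold it), and Nags held 2 and Ass1 held 1 to the GC box GGGCGG (28.6%). The TATA box TATAAA (7.57% of promoters) was in none of the 4. The last 3 motifs were added after the sequences had been seen.

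Depth bears on each value that follows. FROZ libraries held 6.69 M to 9.84 M reads on listed genes and had 12 to 61 genes at 0. FFPE libraries held 1.83 M to 6.01 M reads and had 65 to 1580 genes at 0, and in 8 of them over 10% of the listed genes were at 0: animals 52, 53, 54 and 49 at 198 mg/kg-d, animals 75, 77 and 73 at 313 mg/kg-d, and control animal 3. The FFPE libraries of animals 49 (23.7% of genes at 0) and 73 (21.6%) stood furthest apart. Hepatocyte markers were present in all libraries, with a summed level of 6 of 7 listed markers from 38939 to 75962 CPM in FROZ and from 29336 to 76349 CPM in FFPE.

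In frozen liver, 4 of the 10 urea cycle and nitrogen disposal genes were called against vehicle at 313 mg/kg-d and 2 at 427 mg/kg-d. Of all genes, 26.7% and 30.1% were called at these doses. None of the called members changed by more than 2-fold. Otc was lower at the higher 2 doses. Ass1 and Got1 were lower and Nags higher at 313 mg/kg-d, and Asl was higher at 427 mg/kg-d. By limma, with the false discovery rate (FDR, Benjamini-Hochberg over all genes of the table) called under 0.05, 0 of 10 members changed at 198 mg/kg-d, where 1.56% of all genes did (1.12% higher and 0.443% lower). At that dose 2 of 10 members had an unadjusted limma p under 0.05, as did 1924 of all 11275 genes. At 313 mg/kg-d 4 of 10 were called (3 lower and 1 higher), against 26.7% of all genes (6.15% lower and 20.5% higher). At the highest dose, 427 mg/kg-d, 2 of 10 were called (1 lower and 1 higher), against 30.1% (7.33% lower and 22.7% higher). When each library was rescaled by its median ratio, the split was 6 lower and 0 higher at 313 mg/kg-d and 2 lower and 0 higher at 427 mg/kg-d, and the calls of Nags and Asl were lost. With that scaling 2378 of all 11275 genes were called at 313 mg/kg-d (1156 of them higher) and 2847 at 427 mg/kg-d (1423 higher). None was a differentially expressed gene (DEG, FDR under 0.05 and a fold change above 2) at any dose, compared with 0.106%, 2.31% and 3.5% of all genes at 198, 313 and 427 mg/kg-d.

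**Figure D1:**
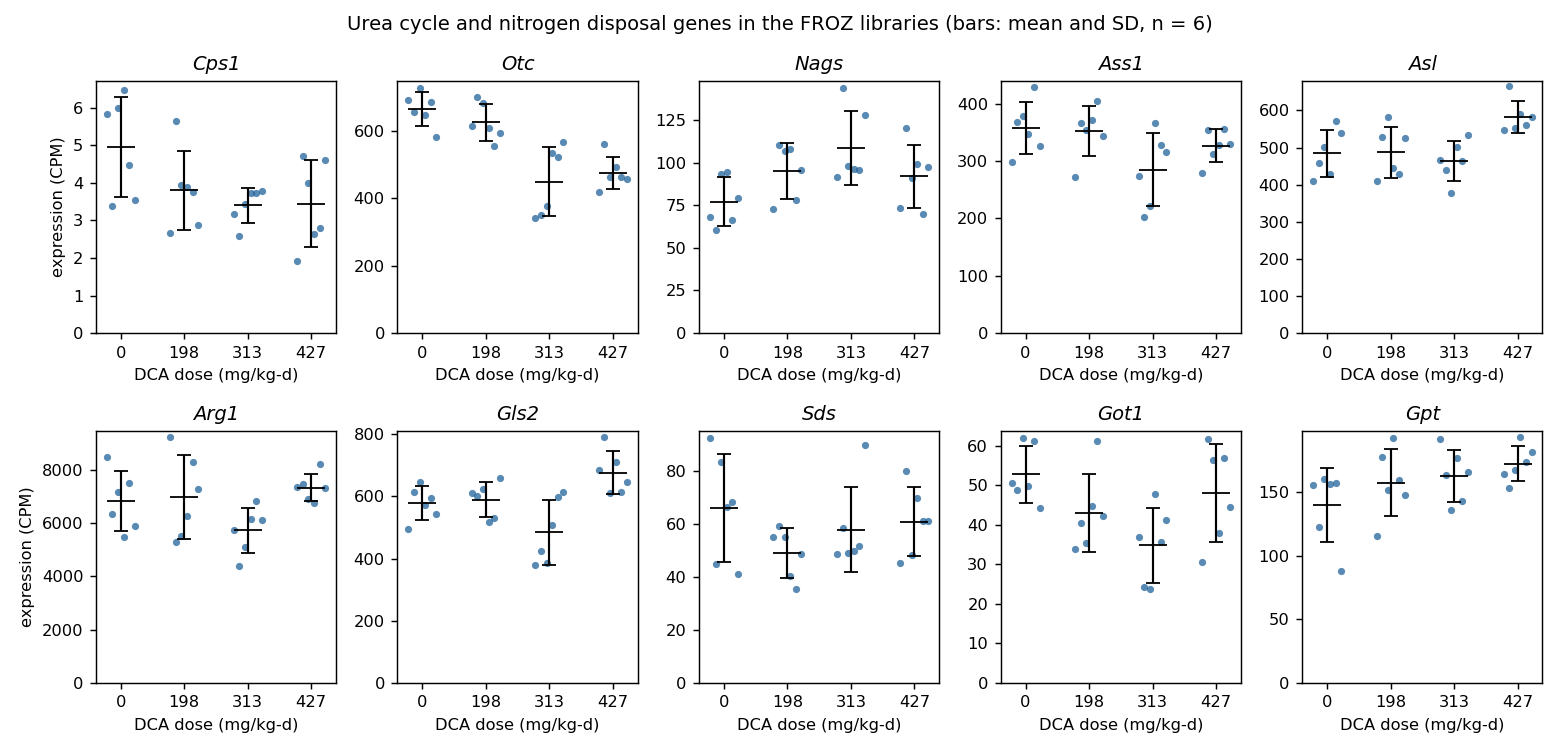
Expression (CPM, linear axis) of the 10 genes in the 24 FROZ libraries by DCA dose in mg/kg-d. Points are libraries and bars are the mean and SD of 6. Otc falls to 343 to 566 CPM at 313 mg/kg-d and 419 to 560 CPM at 427 mg/kg-d, below all 6 controls (583 to 728 CPM).

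Of the mitochondrial members, Otc was lower at both higher doses and Nags higher at 1 of them. Otc, ornithine transcarbamylase, was at 583, 670 and 728 CPM (lowest, median and highest of 6) in FROZ controls, and at 554, 610 and 699 CPM at 198 mg/kg-d. It was at 343, 448 and 566 CPM at 313 mg/kg-d and 419, 462 and 560 CPM at 427 mg/kg-d. All 6 animals at each of the higher 2 doses were below all 6 controls, whereas the ranges overlapped at 198 mg/kg-d. A range wholly below the controls was seen for 2.39% of all genes at 313 mg/kg-d and 3.27% at 427 mg/kg-d. The Otc fold change was -0.60 (SE 0.11, limma FDR 0.000243) at 313 mg/kg-d and -0.49 (SE 0.11, FDR 0.00139) at 427 mg/kg-d. The step from 198 to 313 mg/kg-d was -0.51 (FDR 0.00315), in 1 of 10 members against 11.7% of all genes (3.65% lower and 8.05% higher). The step from 313 to 427 mg/kg-d was 0.11 (95% interval -0.12 to 0.34, FDR 0.653). Otc levels lay apart within the 313 mg/kg-d group, at 343, 350 and 376 CPM in animals 73, 74 and 75 and at 534, 521 and 566 CPM in animals 76, 77 and 78.

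Cps1, the entry enzyme of the cycle, was listed at a low level in FROZ, with 17 to 61 reads per library. It was at 3.39, 5.15 and 6.48 CPM in controls, 2.67, 3.83 and 5.63 CPM at 198 mg/kg-d, 2.57, 3.58 and 3.78 CPM at 313 mg/kg-d and 1.92, 3.40 and 4.71 CPM at 427 mg/kg-d. The ranges overlapped the controls at every dose. Its fold changes were -0.31, -0.41 and -0.43 (SE 0.17 each) at the 3 doses, with limma FDR of 0.381, 0.0831 and 0.0624. Cps1 is known as an abundant hepatocyte enzyme, and these few reads limit the precision of its values here. Whether this probe follows the Cps1 transcript was not tested, which bears on each Cps1 value and call that follows.

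Nags, which makes the activator of Cps1, was at 60.5, 73.7 and 94.7 CPM in FROZ controls and 91.3, 97.0 and 144 CPM at 313 mg/kg-d. Of the 6 animals at 313 mg/kg-d, 5 were above all controls, with a fold change of 0.49 (SE 0.14, limma FDR 0.0123). It was at 72.7, 101 and 110 CPM at 198 mg/kg-d (0.30, FDR 0.279) and at 70.0, 94.3 and 120 CPM at 427 mg/kg-d (0.25, FDR 0.204). Neither of these was called, and their ranges overlapped the controls. The upward call was not kept when libraries were scaled by their median ratio, where Nags was at 0.35 (FDR 0.0847).

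Of the cytosolic enzymes, Ass1 and Asl were called in opposite directions at different doses. Ass1, argininosuccinate synthase, was at 298, 357 and 428 CPM in FROZ controls and 273, 360 and 405 CPM at 198 mg/kg-d. It was at 203, 295 and 366 CPM at 313 mg/kg-d and 278, 329 and 356 CPM at 427 mg/kg-d. Animals 73, 74 and 75 at 313 mg/kg-d were below all controls, and the fold change was -0.35 (SE 0.12, limma FDR 0.0326). The value at 427 mg/kg-d was -0.13 (95% interval -0.38 to 0.12, FDR 0.472). The Ass1 call at 313 mg/kg-d was lost when any 1 of animals 4, 5, 7, 73, 74 or 75 was left out (FDR up to 0.108).

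Asl, argininosuccinate lyase, was at 409, 479 and 571 CPM in FROZ controls and 547, 572 and 665 CPM at 427 mg/kg-d. The ranges overlapped, with 3 of 6 treated animals above all controls, and the fold change was 0.27 (SE 0.10, limma FDR 0.0355). It was at 409, 486 and 583 CPM at 198 mg/kg-d and 378, 464 and 533 CPM at 313 mg/kg-d, with fold changes of 0.01 (FDR 0.988) and -0.06 (FDR 0.694). The Asl call at 427 mg/kg-d was lost with median-ratio scaling (0.13, FDR 0.412) and without any 1 of animals 3, 4, 6, 98, 100 or 102 (FDR up to 0.0947).

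Arg1, the arginase that releases urea, showed no called change in FROZ. It was at 5481, 6760 and 8504 CPM in controls, 5275, 6774 and 9234 CPM at 198 mg/kg-d, 4394, 5929 and 6822 CPM at 313 mg/kg-d and 6773, 7339 and 8207 CPM at 427 mg/kg-d. The groups overlapped throughout. Fold changes were 0.02, -0.25 and 0.12 (SE 0.14 each) with limma FDR of 0.967, 0.197 and 0.565.

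Of Gls2, Sds, Got1 and Gpt, Got1 alone was called against vehicle in FROZ. Got1, the cytosolic aspartate transaminase, was at 44.3, 50.2 and 61.8 CPM in controls, 34.0, 41.3 and 61.2 CPM at 198 mg/kg-d and 23.6, 36.2 and 47.6 CPM at 313 mg/kg-d. At that dose 5 of 6 animals were below all controls and the fold change was -0.62 (SE 0.17, limma FDR 0.00898). Got1 was at 30.4, 50.5 and 61.6 CPM at 427 mg/kg-d, with a fold change of -0.17 (95% interval -0.52 to 0.19, FDR 0.516).

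Gls2, the liver glutaminase, was at 494, 584 and 647 CPM in FROZ controls, 517, 605 and 659 CPM at 198 mg/kg-d, 379, 466 and 614 CPM at 313 mg/kg-d and 610, 666 and 791 CPM at 427 mg/kg-d. Against vehicle the fold changes were 0.03, -0.28 and 0.23 (SE 0.11 each; limma FDR 0.929, 0.0637 and 0.126). The step from 313 to 427 mg/kg-d was called, at 0.50 (SE 0.11, FDR 0.0115), in 1 of 10 members against 3.07% of all genes (1.73% higher and 1.34% lower). Animals 73, 74 and 75 were again the lowest at 313 mg/kg-d, at 379, 425 and 384 CPM, with animals 76, 77 and 78 at 508, 599 and 614 CPM.

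Gpt, alanine transaminase, was at 87.9, 156 and 160 CPM in FROZ controls and 153, 171 and 193 CPM at 427 mg/kg-d, where 5 of 6 animals were above all controls. Its fold changes were 0.18, 0.24 and 0.32 (SE 0.13 each), with limma FDR of 0.496, 0.182 and 0.0571. Sds, serine dehydratase, was at 41.1, 67.3 and 92.3 CPM in FROZ controls and 35.5, 51.7 and 59.3 CPM at 198 mg/kg-d. The Sds fold changes were -0.39, -0.17 and -0.08 (SE 0.18 each), with FDR of 0.281, 0.554 and 0.779. Neither gene was called at any dose.

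Across the FROZ dose range, slopes on dose were called for 3 of 10 members, against 32.2% of all genes (24.4% higher and 7.73% lower). Otc fell by 0.14 on the log2 scale per 100 mg/kg-d (SE 0.03, limma FDR 0.000534) and Cps1 fell by 0.10 (SE 0.04, FDR 0.0368), whereas Gpt rose by 0.07 (SE 0.03, FDR 0.0421). The Cps1 slope was not called with dose as a rank (FDR 0.0513) or without any 1 of animals 3, 5, 6, 7, 97, 100 or 101 (FDR up to 0.102). The Gpt slope was not called with median-ratio scaling (0.04, FDR 0.292) or without any 1 of animals 4, 8, 73, 76, 99, 100, 101 or 102 (FDR up to 0.163). With that scaling the slopes of 3 of 10 members were called lower and 0 higher. Of all 11275 genes, 3049 were then called, 1539 of them higher.

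The members did not follow the doses in a single order. Relative to vehicle, 8 of 10 members were lower and 2 higher at 313 mg/kg-d by point estimate, whereas 7328 of all 11275 genes were higher. The median fold change was -0.26 compared with 0.11 over all genes of the table. In that dose group animals 73, 74 and 75 were the lowest for Cps1, Otc, Ass1, Arg1 and Gls2, but not for Asl, Nags, Sds, Got1 and Gpt. From 313 to 427 mg/kg-d 8 of 10 members had a positive step, as did 5737 of all 11275 genes. The median step was 0.17 compared with 0.00 over all genes. Against vehicle the median of the members was -0.01 at 198 mg/kg-d and 0.02 at 427 mg/kg-d (0.07 and 0.10 over all genes).

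**Figure D2:**
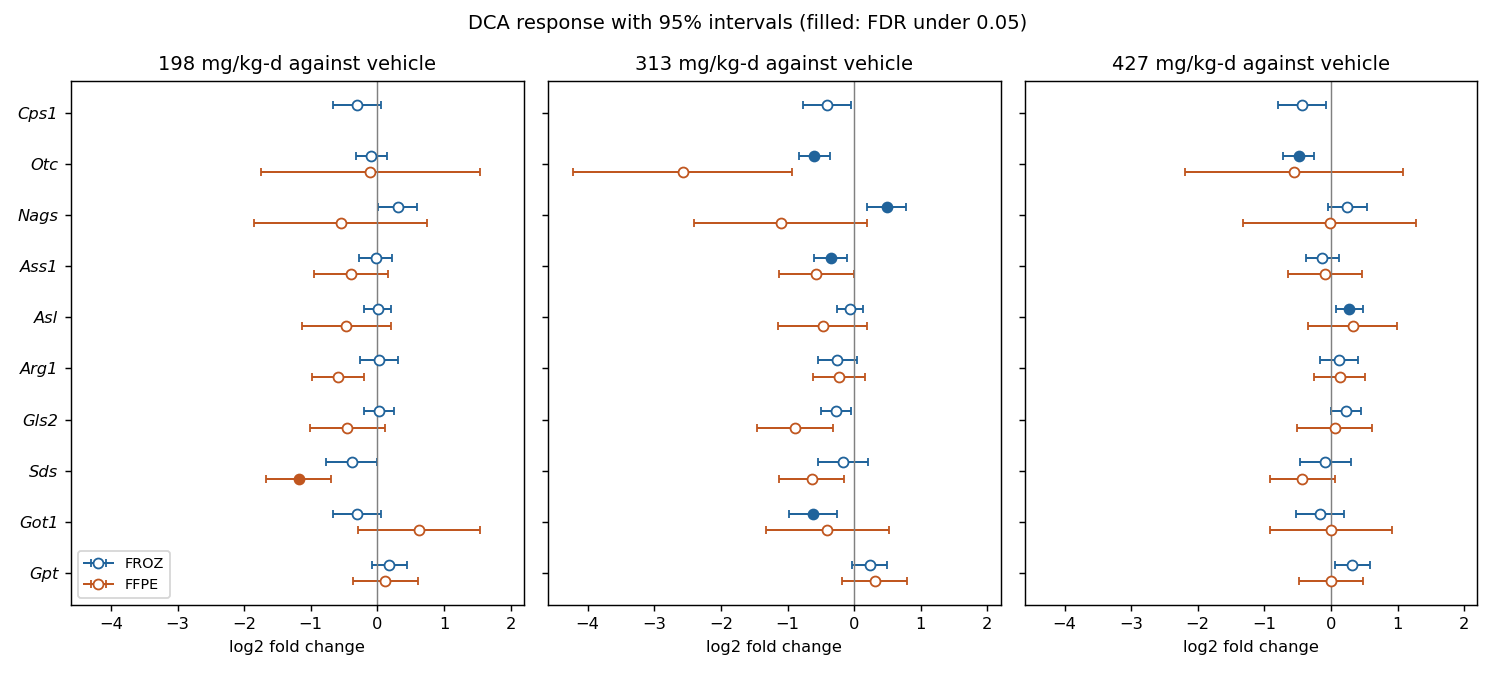
Fold change (log2) of each gene against vehicle at 198, 313 and 427 mg/kg-d, with 95% limma intervals, in FROZ (blue) and FFPE (orange) libraries, 6 per dose and preservation. Filled circles have an FDR under 0.05: none at 198, 4 at 313 and 2 at 427 mg/kg-d in FROZ, and Sds at 198 mg/kg-d in FFPE.

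The scaling of the libraries bears on these directions. Over all FROZ genes the median fold change was 0.11 at 313 mg/kg-d and 0.10 at 427 mg/kg-d in CPM, and -0.00 and -0.01 after each library was rescaled to its median ratio against the mean profile. The share of called genes that were higher fell from 77.0% to 48.6% at 313 mg/kg-d and from 75.6% to 50.0% at 427 mg/kg-d. With this scaling 6 members were called lower and 0 higher at 313 mg/kg-d, namely Otc (-0.74), Got1 (-0.76), Cps1 (-0.52), Ass1 (-0.49), Gls2 (-0.42) and Arg1 (-0.39, FDR 0.0460). The highest dose then had Otc (-0.63) and Cps1 (-0.55) called lower and none higher. Of all 11275 genes, 2378 were called with this scaling at 313 mg/kg-d (1156 of them higher) and 2847 at 427 mg/kg-d (1423 higher). The 10 genes with the most reads in each library took 13.4% to 14.9% of the reads in FROZ controls and 11.6% to 12.8% at 427 mg/kg-d, and the part of this in the shift was not tested.

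Cell type markers moved at the same doses. The summed level of the 6 listed hepatocyte markers in FROZ was 57540 to 70403 CPM in controls and 38939 to 52409 CPM at 427 mg/kg-d. Serpina3k (-0.78), Fgb (-0.70) and Apob (-0.53), which encode secreted liver proteins, were called lower there. The summed level of 12 pericentral markers was 12349 to 19254 CPM in controls and 9468 to 12122 CPM at 313 mg/kg-d. At that dose 7 of 12 were called lower and 1 higher. The pericentral sum was 12585 to 15357 CPM at 427 mg/kg-d, with 3 called lower and 1 higher. The 11 periportal markers were at 2263 to 3216 CPM in controls, 2400 to 2764 CPM at 313 mg/kg-d and 2438 to 3205 CPM at 427 mg/kg-d. Of these, 1 was called higher and 2 lower at 313 mg/kg-d, and 2 higher and 3 lower at 427 mg/kg-d. Over all FROZ genes 20.5% were called higher and 6.15% lower at 313 mg/kg-d, and 22.7% and 7.33% at 427 mg/kg-d. In FFPE the hepatocyte sum was 44998 to 62698 CPM in controls and 29336 to 35543 CPM at 427 mg/kg-d. Of 6 Kupffer cell markers listed in FROZ 3 were called lower at 427 mg/kg-d (7.33% of all genes). Their sum there was 64.0 to 82.8 CPM against 76.3 to 115 CPM in controls. Their part in the changes of the members was not tested. In these bulk libraries fewer cells of a type and less RNA per cell cannot be told apart.

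The partners of the cycle and the handlers of ammonia split in FROZ between higher and lower. Of 26 listed genes, 0 were called higher and 2 lower at 198 mg/kg-d, 5 higher and 5 lower at 313 mg/kg-d, and 6 higher and 3 lower at 427 mg/kg-d. Over all FROZ genes the shares called higher and lower were 1.12% and 0.443%, 20.5% and 6.15%, and 22.7% and 7.33% at these doses, and the lists that follow are to be read against the same shares. Slc1a2, the glutamate transporter (-0.57, SE 0.10, limma FDR 6.59e-05), Gatm, the first enzyme of creatine synthesis from arginine (-0.56, SE 0.13, FDR 0.00109), and the ammonia channel Rhbg (-0.56, SE 0.16, FDR 0.00757) were lower at 427 mg/kg-d. Slc25a13, the mitochondrial aspartate-glutamate carrier citrin, which supplies aspartate to the Ass1 step, was higher at that dose (0.50, SE 0.09, FDR 8.75e-05). The list median was 0.03, 0.13 and 0.14 at the 3 doses, near the 0.07, 0.11 and 0.10 over all genes. Slc1a2 and Rhbg are also pericentral markers.

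Of 46 listed genes of amino acid breakdown, 1 was called higher and 0 lower at 198 mg/kg-d, 5 higher and 14 lower at 313 mg/kg-d, and 8 higher and 8 lower at 427 mg/kg-d in FROZ. These counts stand beside 20.5% higher and 6.15% lower over all genes at 313 mg/kg-d, and the difference was not tested. The list median was -0.12 at 313 mg/kg-d and 0.02 at 427 mg/kg-d. Pccb, a subunit of propionyl-CoA carboxylase (-0.72, SE 0.14, limma FDR 0.000312), Acadsb of isoleucine breakdown (-0.63, SE 0.09, FDR 4.84e-06) and Afmid of tryptophan breakdown (-0.63, SE 0.13, FDR 0.000347) were lower at 427 mg/kg-d. Cth, cystathionine gamma-lyase, was higher (0.72, SE 0.15, FDR 0.000425).

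The list of regulators held 18 genes, made up of regulators with a known part in these pathways and the glucagon targets Pck1, G6pc and Tat. Tat is also in the list of amino acid breakdown. Of the 18 genes, 0 were called higher and 1 lower at 198 mg/kg-d in FROZ. The counts were 3 higher and 4 lower at 313 mg/kg-d, and 5 higher and 2 lower at 427 mg/kg-d. The stress and fasting hormone gene Fgf21 was higher at 427 mg/kg-d (1.13, SE 0.18, limma FDR 1.62e-05), as was Creb3l3 (0.62, SE 0.10, FDR 2.15e-05), which encodes a fasting-responsive hepatic transcription factor. Pck1, the gluconeogenic enzyme induced by glucagon, was lower (-0.72, SE 0.21, FDR 0.0101), as was the transcription factor Foxo1 (-0.47, SE 0.13, FDR 0.00515). The list held called genes of both directions. Over all genes 20.5% were called higher and 6.15% lower at 313 mg/kg-d, and 22.7% and 7.33% at 427 mg/kg-d.

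In FFPE liver 1 of 9 listed members was called. Sds, which deaminates serine, was lower at 198 mg/kg-d, where 0.0599% of all FFPE genes were called (0.03% lower). It was at 206, 328 and 438 CPM in controls and 94.3, 142 and 191 CPM at 198 mg/kg-d. All 6 animals at 198 mg/kg-d were below all 6 controls, as for 0.285% of all FFPE genes, and the fold change was -1.18 (SE 0.24, limma FDR 0.0400), which makes it a DEG. Sds was at 146, 204 and 279 CPM at 313 mg/kg-d (-0.64, SE 0.24, FDR 0.252) and 141, 228 and 342 CPM at 427 mg/kg-d (-0.43, SE 0.24, FDR 0.705). Its largest deviation was therefore at the lowest dose.

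The Sds call in FFPE was close to the threshold. It was kept without the 2 libraries with over 20% of genes at 0 (-1.27, FDR 0.0268) and not kept without the 8 libraries with over 10% (-1.41, FDR 0.186), which leaves 2 animals at 198 mg/kg-d and 5 controls. The call was also lost when any 1 of 13 animals was left out (3, 4, 5, 6, 7, 51, 52, 53, 54, 77, 99, 101 or 102), with fold changes from -1.30 to -1.07 and an FDR of up to 0.118 over all 24 such fits. In FROZ from the same mice Sds was -0.39 at 198 mg/kg-d (FDR 0.281), and 2 of 6 animals were below all controls.

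**Figure D3:**
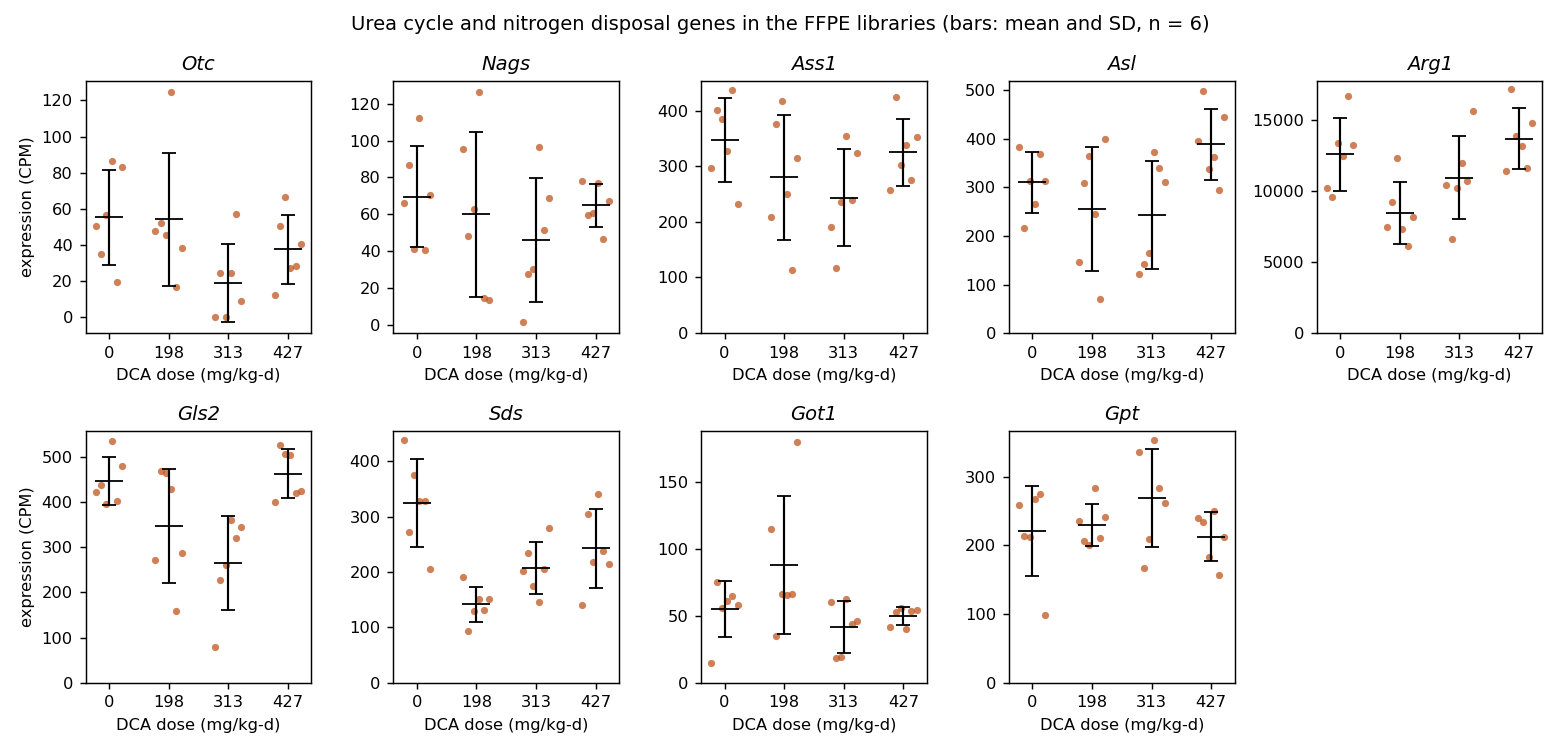
Expression (CPM, linear axis) of the 9 genes listed in the 24 FFPE libraries by DCA dose in mg/kg-d. Points are libraries and bars are the mean and SD of 6. Sds at 198 mg/kg-d (94.3 to 191 CPM) lies below all controls (206 to 438 CPM), and spreads are wide for Otc, Nags and Got1.

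No member of 9 was called in FFPE at 313 mg/kg-d (0 of 9, against 1.08% of all genes, 0.764% higher and 0.315% lower). An unadjusted limma p under 0.05 was found for 4 of 9, and for 781 of all 6673 FFPE genes. Gls2 was at 396, 430 and 534 CPM in controls and 79.9, 290 and 361 CPM at 313 mg/kg-d. All 6 treated animals were below all controls, as for 0.614% of all FFPE genes, yet the fold change of -0.89 (SE 0.28) had an FDR of 0.141. The lowest Gls2 value was that of animal 73, and without the 2 libraries with over 20% of genes at 0 the fold change was -0.57 (FDR 0.277). Otc, Gls2, Sds and Ass1 (-0.57, FDR 0.419) were the 4 with an unadjusted p under 0.05.

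Otc varied widely between FFPE libraries. It was at 19.4, 53.8 and 86.7 CPM in controls, 16.7, 46.5 and 124 CPM at 198 mg/kg-d and 12.5, 34.4 and 66.4 CPM at 427 mg/kg-d. It was listed at 0 in animals 73 and 75 at 313 mg/kg-d and at 8.75 to 56.9 CPM in the other 4 animals. The fold change at 313 mg/kg-d was -2.57 (SE 0.80, limma FDR 0.136) and rested in part on those libraries and on the offset that sets the value of a 0. It was -3.70 (FDR 0.178) with an offset of 0.1 CPM, -1.96 (FDR 0.262) without the 2 libraries with over 20% of genes at 0 and -1.44 (FDR 0.271) without the 8 with over 10%. It was called only without animal 77 (-3.13, FDR 0.0499). A count of 0 allows up to 3 reads, which is 0.971 CPM in animal 73 and 0.865 CPM in animal 75.

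The highest dose gave 0 of 9 calls in FFPE, where 2.41% of all genes were called (1.54% higher and 0.869% lower). There 0 of 9 had an unadjusted limma p under 0.05, against 581 of all 6673 genes. Asl was at 217, 314 and 384 CPM in controls and 294, 379 and 498 CPM, with a fold change of 0.33 (95% interval -0.34 to 0.99), and Otc was at -0.55 (95% interval -2.19 to 1.09). These limma intervals contain the FROZ values of 0.27 for Asl and -0.49 for Otc. They also contain 0 and values of the opposite sign, so they are too wide to compare the preservations. Slopes on dose were called for 0 of 9 members (2.17% of all genes, 1.51% higher and 0.659% lower). For slopes 0 of 9 had an unadjusted limma p under 0.05, against 611 of all 6673 genes. The other FFPE members varied widely within groups, and none was called. Arg1 was at 9540, 12842 and 16634 CPM in controls and 6115, 7814 and 12299 CPM at 198 mg/kg-d, where 5 of 6 animals were below all controls (-0.59, SE 0.19, limma FDR 0.260). Nags was at 40.6, 68.0 and 112 CPM in controls and 1.62, 40.7 and 96.6 CPM at 313 mg/kg-d (-1.11, SE 0.64, FDR 0.516), and at -0.40 (FDR 0.810) without the 2 libraries with over 20% of genes at 0. Got1 was at 14.7, 59.9 and 75.1 CPM in controls and 35.0, 66.5 and 180 CPM at 198 mg/kg-d (0.63, SE 0.45, FDR 0.589). These groups overlapped with the controls. Gpt fold changes ran from 0.00 to 0.31 (SE 0.24) over the doses and Ass1 from -0.57 to -0.08 (SE 0.27). At 198 mg/kg-d Asl (-0.47), Ass1 (-0.40), Gls2 (-0.45) and Got1 (0.63) turned to 0.21, 0.18, 0.06 and -0.38 without the 8 libraries with over 10% of genes at 0. The median fold change of the 9 members was -0.45, -0.57 and -0.00 at the 3 doses, compared with -0.19, -0.12 and 0.18 over all FFPE genes.

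In FFPE, where 0.0599%, 1.08% and 2.41% of all genes were called at the 3 doses, the lists held 0 to 3 called genes each per dose. Among 18 listed partners the glutamine transporter Slc38a3 was higher at 313 mg/kg-d (1.35, SE 0.22, limma FDR 0.000323) and 427 mg/kg-d (0.81, SE 0.22, FDR 0.0440), with 0.58 and 0.46 in FROZ. Among 44 listed genes of amino acid breakdown the proline oxidase Prodh was lower at both doses (-1.33 and -1.26, SE 0.18 each), and Pccb (-0.90) was lower and Cth (0.82) higher at 427 mg/kg-d. None of 15 listed genes of the regulator list, glucagon targets included, was called in FFPE at any dose.

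The difference between FFPE and FROZ in the response to DCA was tested on the within-animal difference, in which each mouse is its own block. It was called for 0 of 9 members at each dose, against 0.0303%, 0% and 0.0303% of the 6591 genes listed in both tables. By limma, 3, 3 and 0 of 9 members had an unadjusted p under 0.05 at 198, 313 and 427 mg/kg-d. Of the 6591 genes, 750, 487 and 146 did. For Sds at 198 mg/kg-d the FFPE fold change minus the FROZ fold change was -0.80 on the log2 scale (95% interval -1.26 to -0.33, unadjusted limma p 0.00165, FDR 0.302). For Otc the differences were -0.01, -1.98 and -0.07 (FDR 0.993, 0.636 and 1.00), with 95% intervals about 1.64 wide on each side. These intervals are wider than the FROZ responses of Otc themselves.

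Levels in FFPE and FROZ differed for 7 of 9 members, against 75.3% of the 6591 genes (41.6% higher and 33.7% lower in FFPE). The largest gap was for Otc, at -4.24 (FFPE minus FROZ, SE 0.28, limma FDR 2.60e-12) and lower in FFPE in 24 of 24 animals. Asl (-0.86, SE 0.12) and Gls2 (-0.69, SE 0.11) were lower in FFPE in 24 of 24 animals, and Nags (-0.90, SE 0.23) in 18 of 24. Sds was higher in FFPE, at 1.90 (SE 0.08, FDR 4.07e-16), in 24 of 24 animals. Arg1 (0.73, SE 0.10) was higher in 22 of 24 and Gpt (0.53, SE 0.08) in 23 of 24. Ass1 (-0.20, FDR 0.0860) and Got1 (0.25, FDR 0.111) were not called. These are differences between shares of 2 separately scaled tables, with a median over all genes of 0.17.

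**Figure D4:**
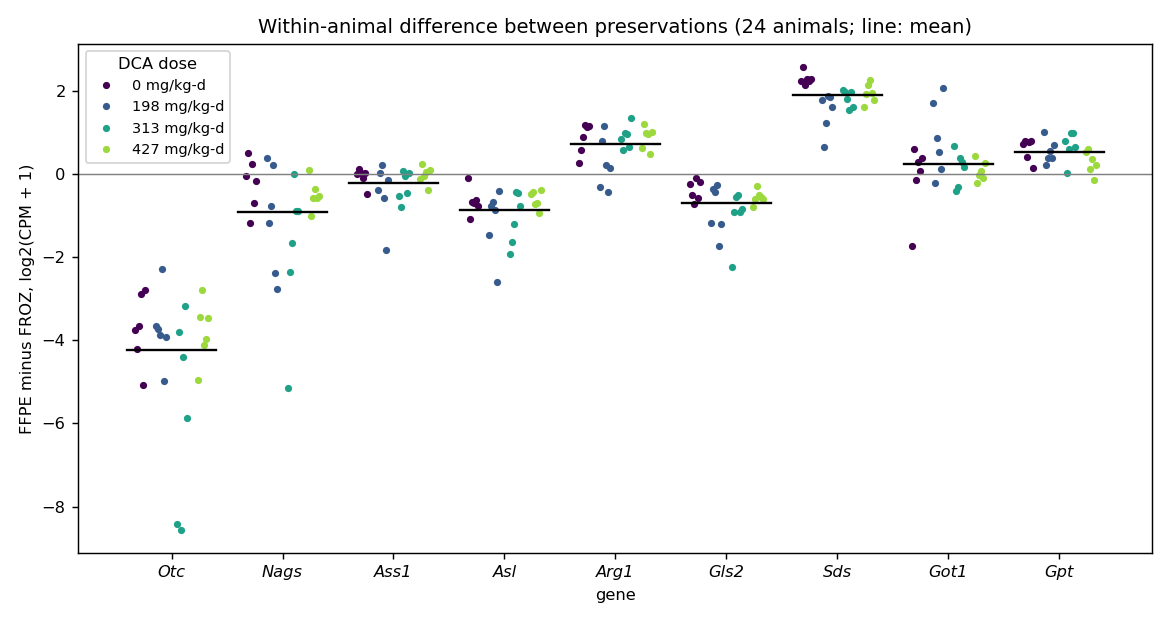
Difference between the FFPE and FROZ library of each of 24 animals in log2(CPM + 1), by gene, with points coloured by DCA dose in mg/kg-d and a line at the mean. Otc, Asl and Gls2 lie below 0 and Sds above 0 in 24 of 24 animals.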

How the data were processed

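TempO-Seq values of 24 FROZ and 24 FFPE mouse liver libraries were used. The deposited values are log2(CPM + 1), computed by the authors: reads were aligned to mm10 with STAR 2.6.1d in Partek Flow, counted on RefSeq transcripts by expectation maximization, filtered on a geometric mean above 1, and scaled to CPM separately for FROZ and FFPE. Reads per library were recovered from the step between low values (at a tolerance of 0.05 reads, a median of 95.3% of FROZ and 96.0% of FFPE values were whole) and used only for depth. Reads carry no molecular identifiers, so depth limits cover counting error only.

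Dose contrasts, steps between doses and slopes were fitted with limma 3.58.1 (R 4.3.3), whose prior variance was let vary with mean expression, on all genes of a table. P-values are two-sided and adjusted by Benjamini-Hochberg over the table. FFPE and FROZ were compared on the within-animal difference of the genes in both tables. The animal numbers in the labels pair the libraries, since both came from 1 liver: deviations from dose means had a median correlation of 0.128 within an animal and -0.0232 between animals. Code was tested on simulated data. No list was given a test of its own. The named genes are the 10 members, and for each list at most 4 called genes with the largest change at 427 mg/kg-d in a preservation. Members, lists and tests were chosen with earlier results of these data known. Positions are from GENCODE vM21 and promoters from RefSeq. Alternatives were other offsets, scaling, priors, library weights, filters, subsets of doses and leaving out each animal. Leaving out FFPE libraries with many genes at 0 was added after seeing the data.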

Additional observations from a re-analysis of the deposited data

Results flagged for a closer look

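Of the 76 groups of 6 libraries formed by the members, preservations and doses, 5 held a library that stood apart from the other 5 by a gap that passed Dixon's 95% critical value on the log2(CPM + 1) scale (the values below are in CPM), and chance gives about 1 in 20. In FFPE at 313 mg/kg-d animal 73 was the lowest for Gls2 (79.9 CPM, others 226.3 to 360.7 CPM) and for Nags (1.62 CPM, others 27.45 to 96.63 CPM). This is the library with 21.6% of its genes at 0. In FFPE controls animal 3 was the lowest for Got1 (14.7 CPM, others 56.26 to 75.07 CPM), with 11.9% of its genes at 0, and animal 8 for Gpt (98.0 CPM, others 212.8 to 274.9 CPM). In FROZ at 313 mg/kg-d animal 78 was the highest for Sds (89.7 CPM, others 48.57 to 58.41 CPM). The other library of the same mouse was also the extreme of its group in all of these but Got1. In FROZ the lowest were animal 73 for Gls2 (379 CPM) and Nags (91.3 CPM) and animal 8 for Gpt (87.9 CPM). In FFPE animal 78 was the highest for Sds (279 CPM). Got1 of animal 3 was at 50.6 CPM in FROZ, which was not the lowest control. No cause was tested.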

How the results depend on the processing

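In FROZ, 4 members were called at 313 mg/kg-d (3 to 5 when 1 animal was left out), 2 at 427 mg/kg-d (1 to 3) and 3 by slope (1 to 3), and 0 at 198 mg/kg-d in every fit. The FROZ calls of Otc at 313 and 427 mg/kg-d and of Got1 at 313 mg/kg-d held under each alternative and each animal left out. Steps between doses, with the calls of Otc and Gls2, were not examined under the alternatives. Ass1 at 313 mg/kg-d was not called in a fit of only the 2 doses (FDR 0.0665). Testing only genes whose mean reached 10 CPM, which leaves Cps1 out, added Gls2 at 313 mg/kg-d (FDR 0.0487) and Gpt at 427 mg/kg-d (FDR 0.0445). In that fit 1 of 9 members was called higher and 4 lower at 313 mg/kg-d, where 2334 of 5875 genes were called. At 427 mg/kg-d 2 were called higher and 1 lower, where 2667 of 5875 genes were called. In FFPE, 1 member was called at 198 mg/kg-d (0 to 1 when 1 animal was left out), 0 with a variance prior without trend, 0 with only the libraries of the compared doses and 0 without the 8 libraries with over 10% of genes at 0, and 0 at 313 mg/kg-d (0 to 1). The cause was not tested. Without the replicate block, with the 48 libraries in 1 fit, 7 members were called between preservations in level and 0 in response, the same counts as with it, and leaving out 1 animal gave 7 to 8 and 0. Of 112 member comparisons, 73 had an unadjusted p over 0.05 and were called in no fit, and 33 of these changed sign in at least 1 of their fits, at values no further from 0 than 0.38. An offset of 0.1 CPM, and library weights in the dose contrasts, left the counts of members called as they were, although the offset moved the FFPE fold change of Otc at 313 mg/kg-d from -2.57 to -3.70. Otc had 0 reads in the FFPE libraries of animals 73 and 75, which held 3.09 M and 3.47 M reads. The FFPE libraries of animals 49, 52 and 54 held fewer, at 1.83 M, 2.81 M and 2.78 M. Those had 87, 350 and 106 Otc reads, and the cause of the values of 0 was not tested.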
